A study of Homo sapiens with 6 samples.

Results

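Chemokine ligand and receptor genes were examined in 3 established human multiple myeloma lines, RPMI8226, KMS11 and U266, which are lines of malignant plasma cells. The members were the genes whose symbol in the platform annotation belongs to the CCL, CCR, CXCL, CXCR, XCL, XCR, CX3C or ACKR series, together with PF4, PF4V1 and PPBP, each read from the probe set with the highest mean over the 6 arrays. In all, 63 of 14884 named genes met this rule, 42 ligand genes and 21 receptor genes, and each had 1 named probe set. Of these, 61 were protein-coding; CXCR2P1 is a transcribed pseudogene and CCL15-CCL14 a non-coding readthrough transcript. Family members without a named probe set were not analysed here.

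Each line contributed 1 array after transfection with a miR-10a mimic and 1 after transfection with a scrambled control, both at 100 nM with the HiPerFect reagent and both collected at 48 h. The whole-transcript arrays (Affymetrix Human Gene 2.0 ST) measured total RNA, and all values below are log2 units of the deposited table. No untransfected or reagent-only array was among the samples, so every level was measured in transfected cells. Each group is 3 permanently growing tumour lines rather than patient material. Since no label speaks of repeated cultures, p-values measure only the spread between these arrays. In bulk RNA, fewer cells that express a gene and less RNA per cell cannot be told apart.

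Chemokines are small secreted proteins that steer migrating leukocytes, and their receptors are G protein-coupled receptors of the target cell. CC ligands mostly bind CCR receptors and CXC ligands bind CXCR receptors, while the atypical receptors (ACKR) take ligands up without G protein signalling. In myeloma, CXCL12 made by marrow stroma and CXCR4 on plasma cells are known for homing and retention in the bone marrow, and CCL3 is known for promoting osteoclast formation. MicroRNAs pair with target transcripts mainly through the seed near their 5′ end and usually lower the targets' level. The mature sequence most often meant by the name miR-10a is shown from RefSeq (GRCh38.p14, chr17:48579904-48579926, minus strand), as the sequence to which the mimic's name most likely refers. Capitals mark the seed, bases 2 to 8; the labels do not say which arm the mimic represents.
hsa-miR-10a-5p: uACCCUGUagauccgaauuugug

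Treatment separated arrays less than line did: Pearson's correlation across all named genes was 0.994 to 0.995 between the mimic and control arrays of 1 line, and 0.900 to 0.921 for arrays from unlike lines. The median of the named genes lay between 4.61 and 4.70 in the 6 arrays. That median served as a fixed yardstick, and a gene was counted as above it when both arrays of a line were. It is not a detection limit: the deposited table holds no detection calls, and the 95th percentile of 85 keratin-associated protein genes, a hair family, reached 5.66 to 6.05.

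Most of the chemokine system lay low in these lines. Of the 63 genes, 20 stood above the array median in at least 1 line, or 31.7%, against 55.2% of all named genes. RPMI8226 had 16 of them (25.4%, against 48.4% of all genes), KMS11 had 6 (9.52%, against 48.4%) and U266 had 11 (17.5%, against 48.3%). In 12 genes this held in exactly 1 line, in 3 genes in 2 lines and in 5 genes in all lines. The other 43 genes ranged from 1.75 to 4.81 over single arrays. The yardstick fell between close neighbours, judged by the lower of the 2 arrays of a gene's highest line. By this measure CXCL12 and CCR10 lay 0.02 and 0.03 above it, and CXCL2 and CXCR3 lay 0.09 and 0.18 below it. CXCL2 stood above it in the other array of that line, at 4.81 in U266 control against a median of 4.61.

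The lines differed in 26 of the 63 genes by limma's F test with Benjamini-Hochberg adjustment over all named genes, or 41.3%, against 50.8% of all genes. A pairwise limma contrast against each of the other lines placed 12 genes highest in RPMI8226 (19%, against 9.72% of all genes). It placed 7 genes highest in U266 (11.1%, against 11.1%) and 0 highest in KMS11 (0%, against 11.1%). At unadjusted limma p-values under 0.05 in both contrasts, KMS11 was still highest in 0 members, against 2006 of all genes. The widest difference between 2 line means exceeded 4 log2 units in 9 members, among 188 such genes in all. It exceeded 1 log2 unit in 15 members, and the matching number over all genes was not counted. Its upper quartile was 0.97 over the members, against 0.95 over all named genes, so the sets were alike near that limit. Its median was 0.32 over the members, against 0.46 over all named genes. Many of the lowest values lay near the low end of the scale, where background and transcript cannot be told apart in this table. A difference against such a value describes the deposited values and may understate a fold change in transcript.

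**Figure D1:**
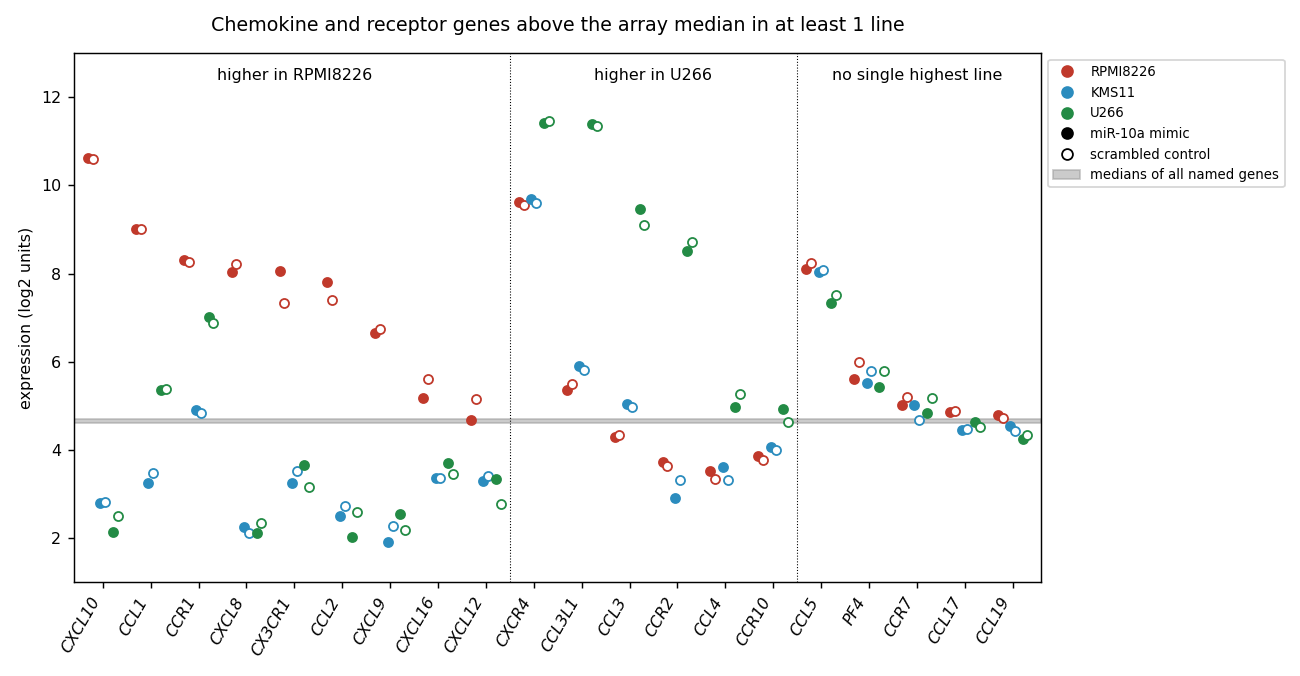
Expression (log2 units) of the 20 chemokine and receptor genes above the array median in at least 1 line, 1 point per array, filled for miR-10a mimic and open for scrambled control. The grey band spans the medians of all named genes over the 6 arrays. Limma's pairwise contrasts called the 9 genes on the left higher in RPMI8226 than in both other lines and the 6 in the middle higher in U266; the 5 on the right had no such call.

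Among the ligands, the widest contrast belonged to CXCL10, an interferon-inducible attractant of activated T cells that binds CXCR3. CXCL10 stood at 10.61 and 10.61 in the mimic and control arrays of RPMI8226, against 2.78 and 2.83 in KMS11 and 2.15 and 2.50 in U266. Both RPMI8226 arrays were high and the other 4 were near the low end of the scale. The deposited values of RPMI8226 exceeded those of KMS11 by 7.80 (limma adjusted p = 2.26e-06) and those of U266 by 8.29 (adjusted p = 1.5e-06), in each case against values near the floor.

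CXCL9, the second CXCR3 ligand that interferon-gamma induces, followed the same order at lower values. Its mimic and control arrays gave 6.66 and 6.75 in RPMI8226, against 1.90 and 2.28 in KMS11 and 2.54 and 2.19 in U266. The RPMI8226 arrays did not overlap the other 4, which were near the floor, and the deposited values differed by 4.61 from KMS11 and by 4.34 from U266 (limma adjusted p = 1.4e-05 and 1.39e-05). CXCL11, the remaining interferon-inducible CXCR3 ligand, gave 3.27 and 3.04 in RPMI8226, 3.06 and 3.12 in KMS11 and 2.97 and 2.83 in U266. These 6 values overlapped between lines, and the F test did not call it (limma adjusted p = 0.217).

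CXCL8, which recruits neutrophils through CXCR1 and CXCR2, was another ligand with a single high line. CXCL8 read 8.04 and 8.22 in RPMI8226 with mimic and control, against 2.26 and 2.12 in KMS11 and 2.12 and 2.35 in U266. Against these floor-level arrays the deposited values of RPMI8226 were 5.94 and 5.89 higher (limma adjusted p = 3.29e-06 for KMS11 and 2e-06 for U266). CXCL6, a related neutrophil attractant, gave 3.32 and 3.25 in RPMI8226, against 2.49 and 2.41 in KMS11 and 2.44 and 2.18 in U266. It was called highest in RPMI8226 although all of its arrays stayed below the array median. The same held for CXCL3, at 3.75 and 3.87 in RPMI8226, against 3.05 and 2.51 in KMS11 and 3.02 and 2.92 in U266. CXCL2, its close relative, ranged from 4.36 to 4.81 over the 6 arrays with no line called (adjusted p = 0.444); sequences shared between these paralogs leave their separate values uncertain.

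The CC ligands called highest in RPMI8226 were CCL1 and CCL2. CCL1, the ligand of CCR8, reached 9.02 and 9.00 in the mimic and control arrays of RPMI8226, against 3.24 and 3.49 in KMS11 and 5.35 and 5.38 in U266. The 3 lines formed 3 separate levels, RPMI8226 being 5.65 above KMS11 and 3.64 above U266, and U266 2.00 above KMS11 (limma adjusted p = 3.29e-06, 5.08e-06 and 5.84e-05). CCL2, a monocyte attractant that binds CCR2, gave 7.81 and 7.40 in RPMI8226, against 2.51 and 2.72 in KMS11 and 2.02 and 2.58 in U266. Only RPMI8226 lay high, and its deposited values were 4.99 above KMS11 and 5.30 above U266, both near the floor (adjusted p = 2.49e-05 and 1.57e-05).

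Weaker ligand signals in RPMI8226 came from CXCL16 and CXCL12. CXCL16, a membrane-bound ligand of CXCR6 that is also shed, gave 5.18 and 5.60 in RPMI8226 with mimic and control, against 3.36 and 3.37 in KMS11 and 3.71 and 3.45 in U266. CXCL12, the ligand of CXCR4 and ACKR3, gave 4.68 and 5.15 in RPMI8226, against 3.29 and 3.40 in KMS11 and 3.34 and 2.77 in U266. Both RPMI8226 arrays exceeded the other 4 for each gene, by 1.81 to 2.02 for CXCL16 and by 1.56 to 1.85 for CXCL12 between line means (limma adjusted p at most 0.000334 and 0.00272).

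The 250 bases upstream of the transcript start of these ligands were read from RefSeq windows (GRCh38.p14), which 43 members had. Windows were searched on both strands for the NF-kB consensus, the interferon response (ISRE)-like repeat, which is GAAA, any 2 bases and GAAA again, and the AP-1 site TGANTCA. CXCL9 is listed at chr4:76007510-76007759, CXCL10 at chr4:76023498-76023747 and CXCL11 at chr4:76036071-76036320, all on the minus strand. CXCL8 is at chr4:73740319-73740568 on the plus strand, and CCL1 at chr17:34363234-34363483 on the minus strand. They are shown because these ligands differ in level as described above while CXCL11 lies beside CXCL10, and capitals mark the matches.
CXCL10: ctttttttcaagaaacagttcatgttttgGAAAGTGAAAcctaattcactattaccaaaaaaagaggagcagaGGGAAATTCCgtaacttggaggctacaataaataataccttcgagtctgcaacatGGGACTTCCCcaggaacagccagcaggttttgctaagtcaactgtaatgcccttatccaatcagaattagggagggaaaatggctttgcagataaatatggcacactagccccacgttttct
CXCL9: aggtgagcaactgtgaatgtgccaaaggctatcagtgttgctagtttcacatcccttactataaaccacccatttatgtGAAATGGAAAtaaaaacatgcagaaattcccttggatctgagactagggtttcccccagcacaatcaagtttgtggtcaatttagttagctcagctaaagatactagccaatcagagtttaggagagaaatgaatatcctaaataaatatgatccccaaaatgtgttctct
CXCL11: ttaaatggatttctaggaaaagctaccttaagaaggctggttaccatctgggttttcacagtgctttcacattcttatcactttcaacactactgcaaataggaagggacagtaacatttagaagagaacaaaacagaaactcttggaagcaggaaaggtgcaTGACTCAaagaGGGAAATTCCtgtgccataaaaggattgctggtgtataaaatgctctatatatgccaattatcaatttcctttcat
CXCL8: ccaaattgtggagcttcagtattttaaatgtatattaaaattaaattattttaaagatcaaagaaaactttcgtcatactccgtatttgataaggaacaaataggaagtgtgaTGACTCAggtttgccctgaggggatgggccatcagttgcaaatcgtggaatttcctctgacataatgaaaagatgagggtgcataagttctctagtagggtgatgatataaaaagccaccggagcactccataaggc
CCL1: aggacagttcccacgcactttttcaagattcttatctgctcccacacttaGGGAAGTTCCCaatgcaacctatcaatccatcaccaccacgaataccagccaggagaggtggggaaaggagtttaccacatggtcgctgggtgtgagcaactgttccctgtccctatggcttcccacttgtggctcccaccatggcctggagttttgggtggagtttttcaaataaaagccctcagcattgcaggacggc

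The CXCL10 window held 1 interferon response-like match, starting 221 bases upstream, and 2 NF-kB matches starting 177 and 122 bases upstream. That of CXCL9 held 1 interferon response-like match, 171 bases upstream. CXCL11 had 1 NF-kB match 76 bases upstream and 1 AP-1 match 87 bases upstream, CXCL8 had 1 AP-1 match 137 bases upstream, and the 2 NF-kB matches of CCL1 overlap. Of all 35116 windows, 9.96% held the NF-kB consensus, 3.02% the interferon response-like repeat and 6.57% the AP-1 site. Among 56 windows of members the counts were 10, 4 and 9. By gene, 10 of the 12 highest in RPMI8226 had a window, with NF-kB matches in 4 (CCL1, CXCL10, CXCL3 and CXCL6), interferon response-like matches in 2 and AP-1 in 1. For U266 3 of 7 genes had a window, with 1 match in all, an AP-1 site of CCR2. Of the other 44 members 30 had a window, with NF-kB matches in 6, CXCL11, CXCL2 and CXCL5 among them, interferon response-like matches in 2 and AP-1 in 6. A gene was counted when any of its windows held a match, so counts by gene are not comparable with the shares of single windows. The share by gene over all genes was not computed. These matches describe letters in a window and not bound sites. Only exact patterns were searched, so a window without a match may still hold a variant of the site.

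Receptor genes separated the lines as well. CCR1, a receptor for CCL3, CCL5 and several other CC ligands, gave 8.30 and 8.27 in RPMI8226 with mimic and control, against 7.01 and 6.87 in U266 and 4.90 and 4.84 in KMS11. Its arrays again formed 3 levels, RPMI8226 being 1.34 above U266 and 3.41 above KMS11, and U266 2.07 above KMS11 (limma adjusted p = 0.00013, 6.78e-06 and 3.2e-05). CX3CR1, the receptor of the membrane-anchored chemokine CX3CL1, gave 8.06 and 7.32 in RPMI8226, against 3.25 and 3.53 in KMS11 and 3.66 and 3.17 in U266. Its 2 RPMI8226 arrays lay 0.74 apart, and both were far above the other 4 (differences of 4.30 and 4.28, adjusted p = 5.18e-05 and 4.41e-05). CXCR5, the B cell follicle-homing receptor for CXCL13, was called highest in RPMI8226 at low values, with 4.15 and 4.16 there, against 3.30 and 3.46 in KMS11 and 3.51 and 3.25 in U266.

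U266 had the highest values of the CCL3 group and of another set of receptors. CCL3L1, a CCR1 ligand, gave 11.39 and 11.35 in the mimic and control arrays of U266, against 5.37 and 5.49 in RPMI8226 and 5.90 and 5.81 in KMS11. CCL3 followed with 9.46 and 9.11 in U266, against 4.30 and 4.35 in RPMI8226 and 5.03 and 4.98 in KMS11. U266 was above RPMI8226 by 5.95 for CCL3L1 and by 4.97 for CCL3, and above KMS11 by 5.52 and 4.28 (limma adjusted p at most 6.2e-06). CCL3 and CCL3L1 are near-identical copies, so their probe sets may share signal and the level of each alone is uncertain. CCL4, an attractant of monocytes and T cells, gave 4.98 and 5.27 in U266, against 3.52 and 3.33 in RPMI8226 and 3.62 and 3.31 in KMS11, a difference of 1.70 and 1.66 (adjusted p = 0.000343 and 0.000451).

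CCR2, the receptor of CCL2, was high in U266 alone. It gave 8.52 and 8.71 in U266 with mimic and control, against 3.73 and 3.64 in RPMI8226 and 2.91 and 3.31 in KMS11. U266 exceeded RPMI8226 by 4.93 and KMS11 by 5.50 (limma adjusted p = 4.13e-06 and 4.89e-06). CXCR4 was high in all lines and highest in U266, with 11.41 and 11.46 there, against 9.62 and 9.55 in RPMI8226 and 9.69 and 9.61 in KMS11. Its values in RPMI8226 and KMS11 overlapped (difference -0.06, 95% interval -0.31 to 0.18), and U266 was 1.85 and 1.78 above them (adjusted p = 4.35e-05 and 6.23e-05). CCR10, a receptor of mucosa-homing plasma cells, gave 4.93 and 4.64 in U266, against 3.86 and 3.77 in RPMI8226 and 4.07 and 3.99 in KMS11 (adjusted p = 0.0007 and 0.0022). XCL1, a ligand made by T and NK cells, was the 7th gene called highest in U266, with 3.21 and 3.96 there, against 2.82 and 2.94 in RPMI8226 and 2.37 and 2.97 in KMS11. Its U266 mimic array lay close to the KMS11 control array, and all of its values were below the array median.

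Genes without a single highest line included CCL5, a T cell and monocyte attractant. CCL5 gave 8.11 and 8.25 in RPMI8226 with mimic and control, 8.04 and 8.08 in KMS11, and 7.34 and 7.50 in U266. RPMI8226 and KMS11 differed by 0.12 (95% interval -0.12 to 0.36), and both were above U266, by 0.75 and 0.64 (limma adjusted p = 0.0015 and 0.00334). PF4, a platelet chemokine with the close copy PF4V1, gave 5.43 to 5.98 over the 6 arrays with no line called (adjusted p = 0.328). CCR7, the lymph node-homing receptor for CCL19 and CCL21, gave 4.67 to 5.21 and was likewise not called (adjusted p = 0.473). CCL17 and CCL19, attractants of T cells, passed the F test (adjusted p = 0.0321 and 0.0309) while staying between 4.26 and 4.89, close to the array median. The remaining genes of this kind, named because their values passed, were XCL2, CXCR1, CXCR2P1 and CCL8, and none exceeded 3.47 in any array.

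Some neighbouring genes were highest in the same line and others were not. On chromosome 4, CXCL10 lies next to CXCL11 and 1 gene away from CXCL9. CXCL10 and CXCL9 were called highest in RPMI8226, and CXCL11 was not called. CXCL8 and CXCL6, adjacent there, were both called highest in RPMI8226, by 5.94 and 0.84 over KMS11. On chromosome 17, CCL2, CCL7, CCL11 and CCL8 follow one another and CCL1 lies 1 gene further. Highest in RPMI8226 were CCL2 and CCL1, while CCL7, an attractant of monocytes, gave 1.75 to 2.37 and the eosinophil attractant CCL11 2.03 to 2.59 over the 6 arrays. CCL3 and CCL4, also adjacent, were both highest in U266. CCR1 and CCR2, with 2 genes between them on chromosome 3, were highest in different lines, CCR1 in RPMI8226 and CCR2 in U266.

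**Figure D2:**
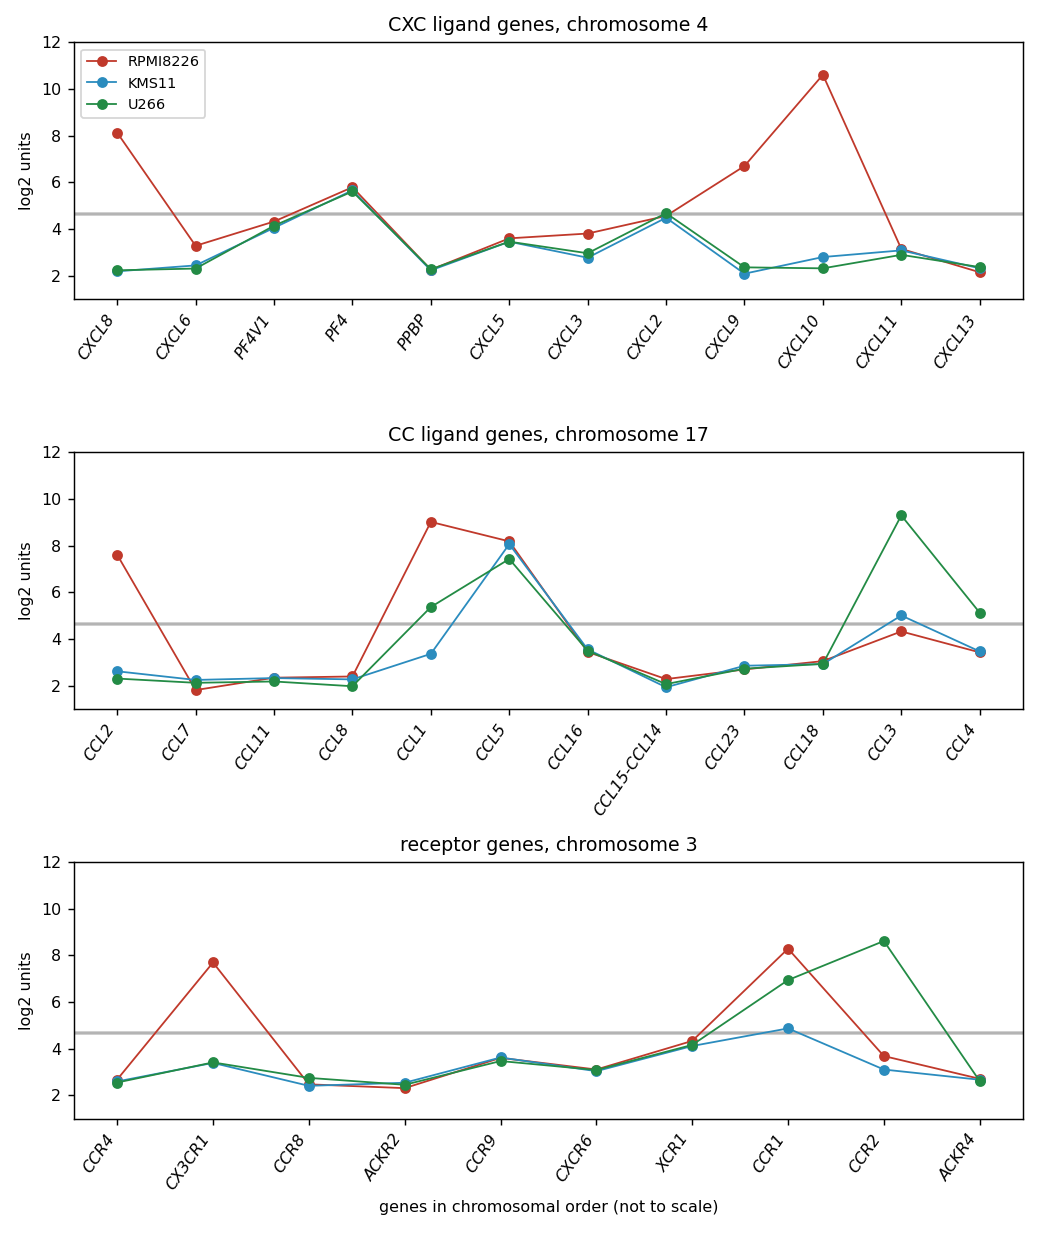
Mean of the 2 arrays of each line (log2 units) for the CXC ligand genes of chromosome 4, the CC ligand genes of chromosome 17 and the receptor genes of chromosome 3, in chromosomal order and not to scale. The grey line is the median of all named genes. The lines separate widely at some genes, such as CXCL10 and CCL3, and lie together at others, such as CXCL11 and CCL18. CCL3L1 is left out because the reference table places it on an alternate sequence.

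Ligand and receptor pairs were then read within each line. Of 54 listed pairs, 36 had a named probe set for both genes, from 31 ligands and 17 receptors. Both partners stood above the array median in 4 pairs in RPMI8226 (CCL3L1 and CCL5 with CCR1, CCL19 with CCR7, CXCL12 with CXCR4). The count was 3 in KMS11 and 3 in U266, in each case CCL3, CCL3L1 and CCL5 with CCR1. Only 2 pairs, CCL3L1 and CCL5 with CCR1, met this in every line. Against the higher yardstick of the keratin-associated protein genes' 95th percentile the counts were 1 in RPMI8226, 0 in KMS11 and 3 in U266, since CCL19, CCR7 and CXCL12 lay near the array median and the KMS11 values of CCR1 and CCL3 were close to it.

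In RPMI8226 the ligand stood above the median without its receptor in 9 pairs, and the receptor without its ligand in 5. In U266 those counts were 1 and 10, and in KMS11 0 and 3. A gene is counted for each listed partner, so these are not counts of receptors or ligands without any partner. CCR1 in RPMI8226, for example, stood alone against CCL3, CCL7 and CCL23 but had CCL3L1 and CCL5 above the median. The ligands CXCL9 and CXCL10 in RPMI8226 had no partner above the median, since CXCR3 gave 4.48 and 4.66 there with mimic and control. CXCR3 was close to the yardstick, at 4.655 against a median of 4.661 in the control array and further below it with mimic. CXCL8 and CCL1 in RPMI8226 had no partner above the median either, and their receptors lay far lower. CXCR1 and CXCR2, which bind CXCL8, gave 2.43 to 2.76 in that line, and CCR8, which binds CCL1, gave 2.29 to 2.87 over all 6 arrays. CCL2 and CCR2 split between lines, with the ligand above the median in RPMI8226 alone and the receptor in U266 alone. CX3CR1 in RPMI8226 faced CX3CL1 values of 4.19 and 4.05. The arrays measure RNA, so none of these counts describes secreted protein or receptor at the cell surface.

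**Figure D3:**
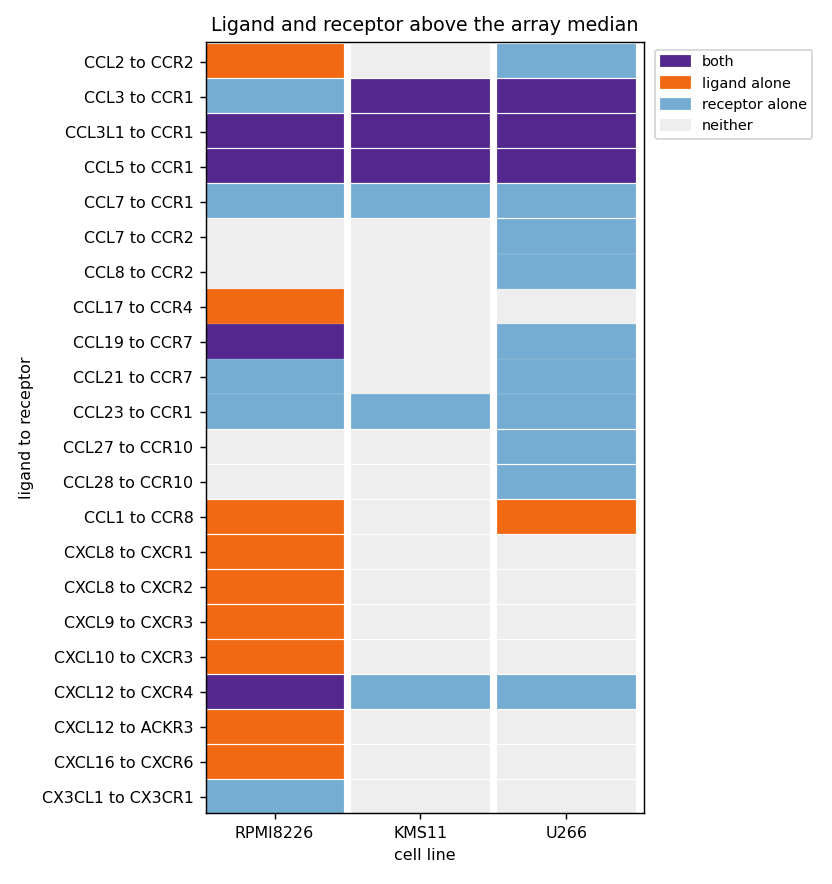
The 22 ligand and receptor pairs with at least 1 partner above the array median in some line, by cell line, coloured by which partner stood above the median in both arrays. RPMI8226 holds most of the cells with the ligand alone, U266 most of those with the receptor alone, and CCL3L1 and CCL5 with CCR1 have both in all lines.

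Genes that act around chemokines were read in the same arrays, with limma's F test between lines as the call, which 50.8% of all named genes passed. Of 32 listed genes of chemokine receptor signalling, 10 were named and 8 passed. LYN, a Src-family kinase, gave 6.28 and 5.84 in RPMI8226 with mimic and control, against 7.81 and 7.86 in KMS11 and 7.74 and 7.91 in U266. ELMO1, a partner of the Rac activator DOCK2, was lower there too, with 8.29 and 8.17 in RPMI8226, against 9.53 and 9.72 in KMS11 and 9.25 and 9.26 in U266. The others named were VAV1, a Rac exchange factor, at 7.03 to 7.36 in RPMI8226 and KMS11 and 8.16 in U266, and the kinase gene PTK2B, at 7.11 to 7.25 in RPMI8226 and 6.32 to 6.48 in the other lines.

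Of 10 named RGS genes, whose proteins shorten G protein signals, 6 passed, against the same 50.8% of all genes. RGS1, which dampens chemokine responses in B cells, gave 9.58 and 10.08 in KMS11, against 4.88 and 4.57 in RPMI8226 and 7.00 and 7.26 in U266. RGS16 ran in another order, with 9.18 and 9.19 in RPMI8226, against 7.95 and 7.79 in KMS11 and 5.87 and 6.08 in U266. RGS10 and RGS19 had their highest values in KMS11, at 5.60 to 5.78 for RGS10 and 6.56 to 6.66 for RGS19.

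Interferon and NF-kB signalling genes passed in 14 of 16 named cases, and the 4 with the widest spread did not share an order. IRF8, an interferon-regulated transcription factor, gave 7.24 and 7.25 in RPMI8226 with mimic and control, against 5.73 and 5.42 in KMS11 and 4.97 and 5.21 in U266. JAK2, a kinase of the interferon-gamma receptor, gave 5.68 and 5.67 in KMS11, against 3.68 and 4.06 in RPMI8226 and 4.81 and 5.16 in U266. IRF9, the DNA-binding subunit of the interferon-activated factor ISGF3, gave 6.95 and 7.25 in U266, against 5.42 and 5.64 in RPMI8226 and 6.43 and 6.19 in KMS11. The lowest line for both JAK2 and IRF9 was RPMI8226. NFKB1, the p105 and p50 NF-kB subunit gene, was high in all arrays, at 8.56 and 8.58 in RPMI8226, 8.71 and 8.79 in KMS11 and 7.15 and 7.23 in U266.

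Interferon-induced genes that often accompany CXCL10 were not highest where CXCL10 was. Of 9 named, 8 were called higher in U266 than in both other lines, against 11.1% of all genes, and 0 in RPMI8226. IFIT3, an antiviral effector gene, gave 6.79 and 7.12 in U266, against 2.84 and 3.09 in RPMI8226 and 5.04 and 4.89 in KMS11. USP18, which removes ISG15 from proteins, gave 8.09 and 8.81 in U266, against 5.38 and 4.95 in RPMI8226 and 5.95 and 5.97 in KMS11. XAF1 gave 6.53 and 7.49 and the ubiquitin-like modifier gene ISG15 6.20 and 6.74 in U266, while in RPMI8226 they stayed at 5.40 to 5.42 and 5.56 to 5.75.

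Of 10 named genes for chemokine processing, sulfation and surface display, 8 passed the F test, again against 50.8% of all genes. SDC1, the plasma cell proteoglycan that carries chemokine-binding heparan sulfate, gave 9.48 and 9.49 in U266 with mimic and control, against 7.16 and 7.30 in RPMI8226 and 5.72 and 5.52 in KMS11. EXT1, which builds heparan sulfate chains, was lowest in RPMI8226, at 5.92 and 5.72, against 7.60 and 7.71 in U266 and 6.94 and 6.98 in KMS11. The protease gene FURIN was also lowest there, at 5.46 and 5.72, against 6.83 to 6.98 in the other lines. TPST1, a tyrosine sulfotransferase that modifies receptor tails, gave 6.38 and 6.70 in KMS11, against 4.96 and 4.89 in RPMI8226 and 4.47 and 4.87 in U266.

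Marker genes of other cell types were read beside these results. All 6 named plasma cell markers stood above the array median in some line, and IRF4 was at 10.26 to 10.89 in every array. Not all were high throughout: CD38 gave 9.90 and 9.99 in RPMI8226 but 3.80 to 4.92 in the other lines, SLAMF7 7.23 and 7.73 in U266 but 3.27 to 3.79 elsewhere, and MZB1 6.11 to 10.03 over the arrays. Of 5 monocyte and macrophage markers only CD68 stood above it, with 8.02 and 8.35 in RPMI8226 with mimic and control, against 4.49 and 4.46 in KMS11 and 5.34 and 5.14 in U266. CD14, LYZ and CD163 gave 2.31 to 2.83 in all 6 arrays and CSF1R gave 3.89 to 4.24. The summed log2 level of these 5 markers was 19.5 and 20.3 in RPMI8226 with mimic and control, 16.0 and 16.2 in KMS11, and 16.9 and 16.8 in U266. Most of the excess of RPMI8226 in this sum came from CD68. Of 5 T and NK cell markers, CD8A stood above the median, at 4.90 to 5.59 in RPMI8226 and 4.78 to 4.85 in KMS11. Of 3 B cell markers only BLK was above it, at 6.32 and 6.61 in RPMI8226 and 4.73 and 4.96 in U266; of 3 endothelial markers this held only for PECAM1 in U266, at 5.77 and 6.08, and of 2 stromal and 2 platelet markers none. Lists of this kind hold few genes here, and their part in the line differences was not tested.

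The effect of the mimic was tested over the 3 lines together, with the cell line as a block. No member was called: 0 of 63 passed limma's adjusted p of 0.05 (0%, against 0% of all 14884 genes), and the smallest adjusted p of a member was 0.949. At an unadjusted p under 0.05 there were 3 members, or 4.76%, against 5.15% of all genes. The median change over the members was 0.02, against 0.005 over all named genes, with 29 members lower and 34 higher on average. A consistent sign was no more frequent than elsewhere, with 7 members lower in all lines (11.1%, against 11.7%) and 8 higher in all lines (12.7%, against 13.4%). Limma's 95% interval excluded a 1.5-fold change in either direction for 60 of 63 members (95.2%, against 95.4% of all genes) and a 2-fold change for all 63 (100%, against 99.8%). The exceptions at 1.5-fold were CX3CR1, XCL1 and CCL24. Of the 63 members, 43 stood above the array median in no line. Near the floor the deposited values may understate a change in transcript, and an interval there excludes a change in those values only.

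The 3 members at an unadjusted p under 0.05 were PF4, XCL1 and ACKR3. PF4 gave 5.61, 5.53 and 5.43 with mimic in RPMI8226, KMS11 and U266, against 5.98, 5.80 and 5.79 with control. All mimic arrays lay below all control arrays, and the change was -0.34 ± 0.06 (SD of 3 lines, limma adjusted p = 0.949). XCL1 gave 2.82, 2.37 and 3.21 with mimic, against 2.94, 2.97 and 3.96 with control, a change of -0.49 ± 0.33 (adjusted p = 0.949) between overlapping groups. ACKR3, a scavenger of CXCL12 and CXCL11, gave 3.32, 3.54 and 3.59 with mimic, against 3.11, 3.39 and 3.01 with control. The groups overlapped, and the change was 0.31 ± 0.24 (adjusted p = 0.949). XCL1 and ACKR3 lay below the array median in all arrays.

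The genes that set the lines apart had no called mimic difference. CXCL10, high in RPMI8226, had a mimic minus control difference of 0.00 there, of -0.04 in KMS11 and of -0.35 in U266. CCR1 differed by 0.03, 0.06 and 0.14 in the same order, and CCR2 by -0.18 in U266, its only high line. CCL3L1 differed by 0.04 and CCL3 by 0.35 in U266, and CXCL8 by -0.18 in RPMI8226. For CXCR4 the mean difference was 0.04 (95% interval -0.17 to 0.24), and for CCL5 it was -0.12 (-0.31 to 0.08, lower in 3 of 3 lines, limma adjusted p = 0.967). CCL2 ran in opposite directions, by 0.42 in RPMI8226 and -0.56 in U266, where it lay at the bottom of the scale.

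Within single lines, without a test, changes of at least 1.5-fold were rare. RPMI8226 had 1 member past it (CX3CR1, at 0.74), against 2% of all genes. KMS11 had 2 members past it, the eosinophil-recruiting ligand CCL24 with 0.73 and XCL1 with -0.61, against 1.4%. U266 had 1 (XCL1, at -0.75), against 2.1%. ACKR3 in U266, at 0.58, lay just inside the limit. CX3CR1 was the only one of these genes above the array median in the line concerned, with 8.06 with mimic against 7.32 with control, and its change was -0.28 in KMS11 and 0.49 in U266 at levels below 3.7. The median size of a difference over the members was 0.13 in RPMI8226, against 0.12 over all genes; for KMS11 these medians were 0.11 and 0.12, and for U266 they were 0.20 and 0.12.

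Whether a line's change differed from that of the other lines was tested with 1 added term per line, which leaves 1 residual degree of freedom. This called 0 members for RPMI8226, 0 for KMS11 and 0 for U266 (limma, 0% of all genes in each). At an unadjusted p under 0.05 there were 7 members for RPMI8226 (11.1%, against 6.06% of all genes), 5 for KMS11 (7.94%, against 4.09%) and 4 for U266 (6.35%, against 6.12%). The smallest adjusted p values of a member were 0.814, 1.00 and 0.748 in that order. The last of these values, that for U266, was shared by CXCL12 and CXCR3. The mimic minus control difference of CXCL12 was 0.57 in U266, -0.47 in RPMI8226 and -0.11 in KMS11. That of CXCR3 was 0.39, -0.18 and -0.16 in the same order.

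**Figure D4:**
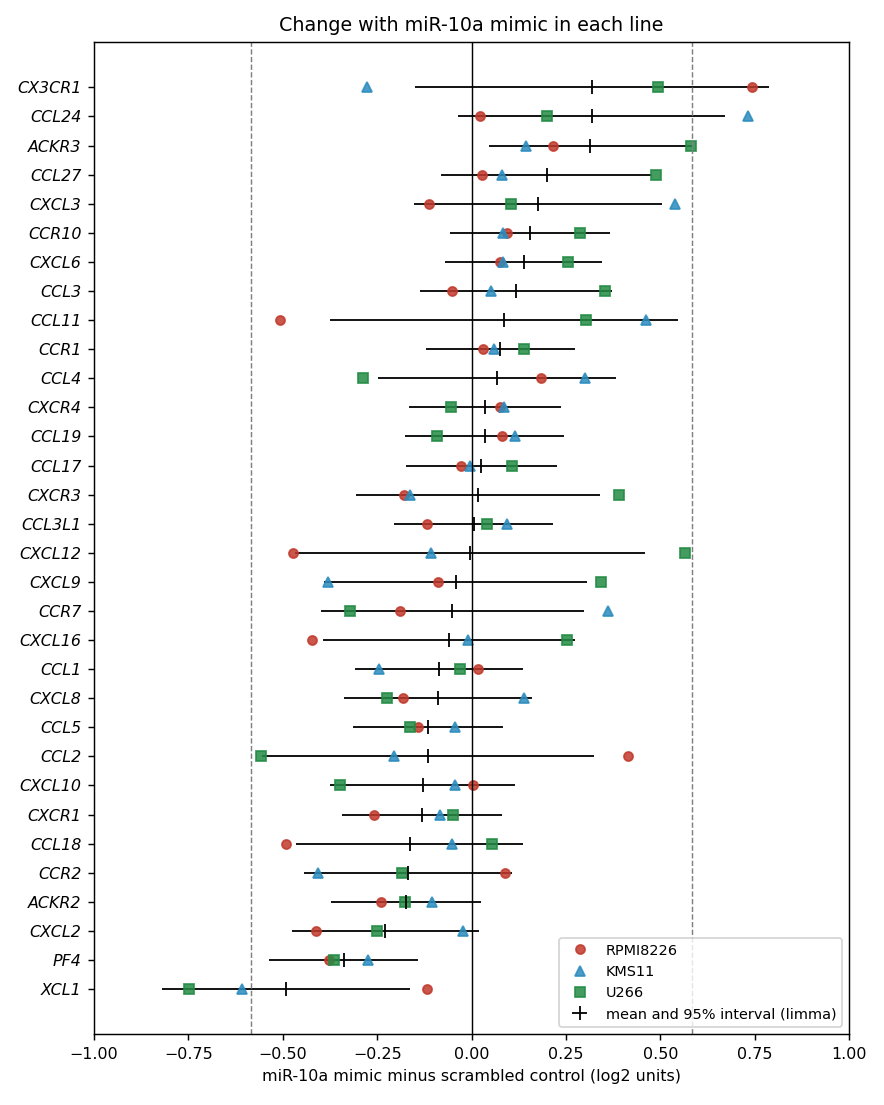
Difference of miR-10a mimic minus scrambled control (log2 units) in each line for 32 chemokine and receptor genes, with limma's mean and 95% interval over the 3 lines; dashed lines mark a 1.5-fold change. For most genes the 3 lines lie on both sides of 0, and the intervals of PF4, XCL1 and ACKR3 leave out 0 before adjustment over all genes.

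None of the lists around the chemokines held a gene called for the mimic. The median change was -0.01 for the receptor signalling, RGS and interferon and NF-kB signalling genes, and 0.00 for the processing genes. Of the 9 interferon-induced genes, 8 were lower with mimic on average, with a median of -0.14 over the lines. By line their medians were 0.11 in RPMI8226, 0.10 in KMS11 and -0.61 in U266. Over all named genes the median was 0.005 over the lines, and by line 0.009, 0.005 and -7.5e-05 in the same order. Each line's value rests on 1 mimic and 1 control array and was not tested for this list. For IFIT3 the U266 arrays read 6.79 with mimic against 7.12 with control, and for USP18 8.09 against 8.81. CXCL10 in U266, at 2.15 with mimic against 2.50 with control, and CXCL9, at 2.54 against 2.19, lay near the floor of the scale.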

How the data were processed

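RNA of 6 arrays was analysed. Values were used on the log2 scale as the authors deposited them, for 53617 probe sets in 1 table. Per the submitters' processing notes, Affymetrix Expression Console 1.3.0 was used; how background was corrected and arrays were normalized and summarized, and on which build, is not given in the sources used here. Summaries of this kind can compress differences at low levels, and the number of arrays limits the precision. Groups and lines came from the labels. The platform annotation gave 1 symbol for 16098 probe sets (14884 genes), and 37519 probe sets remained unnamed here; for 779 genes with several, the probe set with the highest mean was used.

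All named genes, with no filter on low values, were fitted in limma 3.58.1 under R 4.3.3 (lmFit, eBayes without trend) with cell line and treatment as terms, 2 residual and 4.12 prior degrees of freedom. P-values were two-sided and Benjamini-Hochberg adjusted over all named genes, with a threshold of 0.05. Pairing comes from the cell line label: the deviations of a line's 2 arrays from their treatment means correlated at 0.935, 0.932 and 0.938. Scripts were tested on simulated data.

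The planned yardstick, olfactory receptor genes, could not be used because 1 such gene was named, so the array median of named genes, also chosen before the table was read, replaced it. The keratin-associated protein genes were added after the data were seen.

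Named were the members above the yardstick in some line or above the median of all genes on average, CXCL10, CCR1, CCR2 and CCL3L1, the 5 widest consistent mimic changes in each direction, the 3 widest in each line, the genes nearest the yardstick, and of each other list the 4 widest between lines. CXCR5, CXCL11, CCL7 and markers outside this rule were named after their values were seen. The members and lists were chosen with earlier results of these data known. Tried were a filter on low values, median centring, quantile normalization, averaged probe sets, a variance trend, no replicate block, left-out arrays or lines, and other limits.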

Additional observations from a re-analysis of the deposited data

How the results depend on the processing

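With genes under the median mean level removed, 11 members remained to be tested, 9 differed between lines, 4 were highest in RPMI8226 and 4 in U266, against 26, 12 and 7 without the filter. Above the keratin-associated protein genes' 95th percentile, chosen after seeing the data, stood 12 members, against 20 above the array median. At least 2-fold within a line changed 0 members in RPMI8226, 0 in KMS11 and 0 in U266, against 1, 2 and 1 at 1.5-fold. No member was called for the mimic under any setting run, including the fit with no replicate block (0 called). The line differences kept their direction in 94 recomputed values and turned in 2: that of CCL11 between RPMI8226 and KMS11 was -0.030 with centring and -0.015 with quantile normalization. The median mimic change over the members, 0.018 in the main fit, was -0.051 with the filter, -0.0066 without KMS11 and 8.5e-05 without U266. The other settings gave 0.0099 to 0.019. Uncalled mimic changes of single genes kept their sign in 173 recomputed values and turned in 19. That of CCL3L1 was -0.0029 with centring and -0.0022 with quantile normalization. Leaving out 1 line each time gave ranges of -0.015 to 0.052 for CCL17, -0.0054 to 0.098 for CCL19, -0.38 to 0.10 for CCL2, -0.039 to 0.067 for CCL3L1, -0.051 to 0.24 for CCL4, -0.26 to 0.085 for CCR7, -0.29 to 0.23 for CXCL12, -0.22 to 0.12 for CXCL16, -0.23 to 0.13 for CXCL9, -0.10 to 0.38 for CCL11, -0.27 to 0.00060 for CCL18, -0.0050 to 0.32 for CXCL3 and -0.17 to 0.11 for CXCR3. The cause of these turns was not tested. The 90th and 99th percentiles of the olfactory receptor genes were not run, because 1 such gene was named. With 1 array per line and treatment, levels near the floor cannot be told from background.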
